A study of Mus musculus with 15 samples.

Results

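Macrophages grown from mouse bone marrow were compared after 72 h and after 4 h of RANKL, the cytokine that starts osteoclast formation. RNA-seq of 6 samples, 3 per time, entered the comparison, out of 15 samples in the series. All cells were bone marrow-derived macrophages of wild-type C57BL/6 mice that had been expanded in M-CSF for 3 days, and M-CSF stayed present with every stimulus. The other 9 samples were control cells in M-CSF alone, cells given LPS for 4 h and cells given LPS for 72 h, 3 of each. Of 20089 complete entries in the deposited table, 11743 genes reached a mean level of 0.1 FPKM (fragments per kilobase of transcript, scaled to sequencing depth) over the 15 samples and entered the comparison. No group was kept in M-CSF alone for 72 h, so the time under RANKL and the time in culture cannot be told apart. The general culture methods name mice of 4 to 8 weeks and 4 days in M-CSF for macrophages of the knockout line and its controls, without mention of these samples, whereas the series design gives the 3 days. Nothing said whether replicates came from separate animals or cultures, so p-values measure only the spread between these samples.

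RANKL binds its receptor RANK on macrophages and their precursors, and the adaptor TRAF6 passes the signal on to NF-κB, MAP kinases and calcium signalling. Immunoreceptor-associated receptors such as OSCAR add the calcium signal, NFATc1 becomes the leading transcription factor, and the cells fuse into multinucleated osteoclasts. A mature osteoclast seals itself to bone with a ring of podosomes, pumps protons into the space below and secretes cathepsin K and other proteases, work that draws on many mitochondria and on glucose.

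After 72 h, 1930 genes (16.4% of those tested) were higher and 802 (6.83%) were lower than after 4 h. A gene was called changed at a fold above 1.5 or below 0.66 together with a Benjamini-Hochberg adjusted p under 0.05 in limma's moderated test of log2(FPKM + 0.1). The called genes amounted to 2732 (23.3%). In 2667 of them the 3 samples of a time all lay on one side of the 3 samples of the other. This is no separate support, since the calls rest on the same values. By contrast with the 2732 genes, RANKL 4 h differed from control at only 14 (0.119%). Both contrasts use the 4 h samples, so their values are given side by side for single genes only. The split by direction depends on the scale. The median gene was 0.15 higher on the log2 scale at 72 h, and once every sample was centred on its own median, 1141 genes were higher and 1351 lower, so that the share of called genes that were higher moved from 70.6% to 45.8%; with equal sums it was 79.7%. Large changes went mostly upward at the top end, with 33 genes up by a log2 difference of at least 4 and 14 down by as much.

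**Figure D1:**
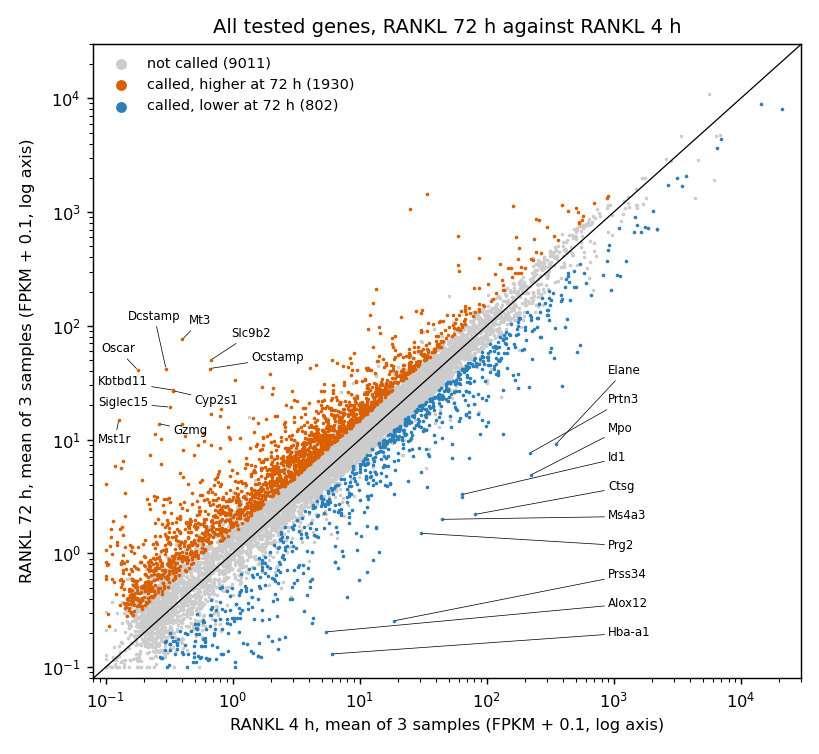
Mean FPKM + 0.1 of each tested gene in the 3 RANKL 4 h samples (horizontal, log axis) and the 3 RANKL 72 h samples (vertical, log axis), with 1 point per gene and the diagonal for equal means. Orange points are the 1930 genes called higher at 72 h, blue points the 802 called lower, and the named points are the 10 largest rises and the 10 largest falls.

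Each sample held 18306184 to 19498513 fragments on listed genes in these 2 groups, and a gene's log2 values had a median SD of 0.20 at either time. In bulk RNA a change in a gene's level can come from more or fewer cells of a type or from more or less RNA per cell, and the 2 cannot be told apart. A single gene compared by an exact permutation test of 3 samples against 3 cannot reach a two-sided p below 0.1, so the calls rest on the fit across all genes. The labels number the replicates without saying what a number marks, and another fit carried these numbers as a block. That fit is quoted where it changed the call of a named gene or moved the count of a gene list by over 1.5 times.

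Of the 10 largest rises, 5 were in genes for membrane proteins of osteoclasts and their precursors. *Oscar*, the costimulatory receptor that signals through the Fc receptor gamma chain, measured 0.184, 0.0263 and 0.0267 FPKM in the 3 samples at 4 h and 37.5, 18.2 and 66.7 FPKM at 72 h. The log2 difference was 7.76 (SE 0.45, adjusted p = 2.6e-07). *Dcstamp*, needed for the fusion of osteoclast precursors, went from 0.307, 0.118 and 0.168 FPKM to 32.1, 22.4 and 70.9 FPKM. Every 72 h sample of either gene stood far above every 4 h sample, and within 72 h replicate 3 was highest and replicate 2 lowest. *Ocstamp*, its partner in fusion, rose from 0.347, 0.821 and 0.505 FPKM to 35.5, 21.1 and 69.5 FPKM (log2 difference 5.90, SE 0.39, adjusted p = 7.4e-07). *Siglec15*, a sialic acid receptor that pairs with the adaptor DAP12, rose from 0.205, 0.171 and 0.278 FPKM to 19.5, 8.47 and 29.8 FPKM (5.76, SE 0.42). *Slc9b2*, a sodium/proton antiporter, rose from 0.51, 0.615 and 0.594 FPKM to 48.1, 26.8 and 75.1 FPKM (6.10, SE 0.34). These genes thus went from below 1 FPKM to well above it in every sample, with the same order of replicates at 72 h.

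The other 5 of the 10 largest rises are less often used as osteoclast markers. *Mt3*, a metallothionein that binds zinc and copper, reached 57.2, 40.2 and 130 FPKM from 0.631, 0.181 and 0.0918 FPKM (log2 difference 7.62, SE 0.69, adjusted p = 8.5e-06). *Mst1r*, the receptor tyrosine kinase for macrophage-stimulating protein, reached 14.7, 7.82 and 21.6 FPKM from at most 0.0597 FPKM (6.78, SE 0.33). *Kbtbd11* and the cytochrome P450 gene *Cyp2s1* rose by 6.29 (SE 0.35) and 6.25 (SE 0.44). In these 4 genes replicate 2 was again the lowest of the 72 h samples. *Gzmg*, a granzyme, stood apart from them, with 16.4, 9.11 and 15.5 FPKM at 72 h against 0.107, 0 and 0.38 FPKM at 4 h. Its difference of 5.95 had an SE of 1.44 (adjusted p = 0.008), and it was not called by voom on the fragments behind the FPKM (adjusted p = 0.245).

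**Figure D2:**
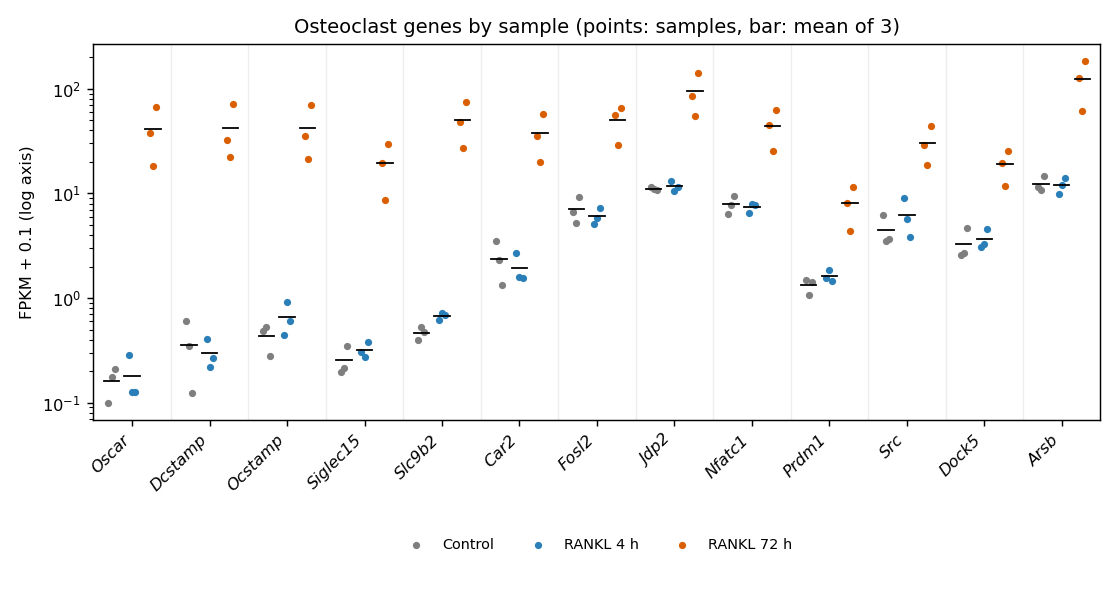
FPKM + 0.1 (vertical, log axis) of 13 osteoclast genes in each of the 3 control, RANKL 4 h and RANKL 72 h samples; points are samples and bars the mean of 3. Control and 4 h samples lie close together, while every 72 h sample lies above every 4 h sample of the same gene.

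Sequence upstream of 2 of these genes is shown, because *Oscar* had the largest rise and *Ctsk*, for cathepsin K, encodes the main collagen-degrading protease of the osteoclast. The windows are the 250 bases before the annotated start from RefSeq (GRCm38.p6), at chr7:3616158-3616407 on the minus strand and chr3:95498960-95499209 on the plus strand. Capitals mark TGGAAA, the letters bound by NFAT proteins, which in the *Oscar* window lie on the opposite strand and so read TTTCCA.
Oscar: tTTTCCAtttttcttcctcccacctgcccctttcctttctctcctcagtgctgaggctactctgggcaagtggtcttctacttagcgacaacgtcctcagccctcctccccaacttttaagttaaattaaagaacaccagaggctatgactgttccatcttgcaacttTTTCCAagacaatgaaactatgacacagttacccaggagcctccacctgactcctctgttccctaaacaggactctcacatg
Ctsk: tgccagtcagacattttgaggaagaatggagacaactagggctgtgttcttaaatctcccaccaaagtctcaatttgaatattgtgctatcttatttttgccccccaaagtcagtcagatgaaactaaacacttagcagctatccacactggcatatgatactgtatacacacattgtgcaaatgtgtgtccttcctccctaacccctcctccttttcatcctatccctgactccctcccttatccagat
The *Oscar* window held 2 matches and the *Ctsk* window none, when both strands were searched. Neither window held TGANTCA, the core letters bound by the FOS and JUN family. Over all 32536 distinct windows, 18.6% held TGGAAA and 6.73% held TGANTCA. Among genes called higher, 16.1% of 1443 windows held TGGAAA and 4.02% TGANTCA, beside 15.2% and 4.67% of the windows of all 8973 tested genes with an entry.

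Among 31 transcription factors of the osteoclast programme, 10 rose and 2 fell, with a median log2 difference of 0.44 beside 0.15 over all tested genes. *Fosl2*, a partner of JUN proteins, rose most, from 5.04, 5.73 and 7.08 FPKM to 55.6, 29.2 and 65.7 FPKM (2.99, SE 0.27, adjusted p = 8.5e-06). *Jdp2*, a JUN dimerization protein, rose from 12.9, 10.5 and 11.4 FPKM to 85.1, 55.3 and 142 FPKM (2.91, SE 0.27). *Prdm1*, a repressor of the genes that hold osteoclast formation back, rose from 1.53 ± 0.204 to 7.94 ± 3.59 FPKM (mean ± SD, n = 3 here and below). These 3 genes rose without overlap, as did *Nfatc1*, from 7.26 ± 0.787 to 44.2 ± 18.5 FPKM. *Ppargc1b*, a coactivator that drives mitochondrial biogenesis, rose from 0.456 ± 0.0744 to 3.14 ± 1.3 FPKM (2.46, SE 0.33), and *Mitf* by 0.70 (SE 0.18). *Fos* rose from 30.4, 50.7 and 58.1 FPKM to 61, 95.7 and 117 FPKM (0.97, SE 0.28, adjusted p = 0.018). The lineage factor *Spi1*, which encodes PU.1, measured 229 ± 26.8 and 194 ± 26.6 FPKM, and *Myc* 22.4 ± 1.92 and 35.2 ± 8.54 FPKM, and neither passed the test. *Pparg*, the nuclear receptor, fell from 10.8, 10.8 and 12.9 FPKM to 3.63, 4.53 and 4.08 FPKM (-1.47, SE 0.21, adjusted p = 0.00023). The call of *Fos* was lost without replicate 2 or 3 of RANKL 72 h or replicate 1 of RANKL 4 h, at 0.70 to 0.91, and that of *Mitf* without replicate 1 of RANKL 4 h, at 0.55.

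Upstream of these factors fewer genes were called. Of 32 tested genes for RANK, costimulatory receptors and their proximal signalling, 6 rose and 2 fell, near the background, and the median of 0.22 was 0.00 after centring. *Tnfrsf11a*, which encodes RANK, rose from 13.8, 18.5 and 14.3 FPKM to 24.1, 28.2 and 34.4 FPKM (0.89, SE 0.17, adjusted p = 0.0023), without overlap. *Traf6*, the adaptor, measured 8.43 ± 1.08 and 12.8 ± 1.88 FPKM (0.59, SE 0.20, adjusted p = 0.043), and the replicate block ended its call (0.59, adjusted p = 0.0506). So did leaving out replicate 1 or 3 of RANKL 72 h or any replicate of RANKL 4 h, at 0.49 to 0.67. *Csf1r*, the receptor of M-CSF, measured 268 ± 34.9 and 325 ± 24.3 FPKM and the kinase *Syk* 48.2 ± 7.1 and 43.2 ± 3.48 FPKM, and neither was called. *Trem2*, another receptor that signals through DAP12, fell from 478, 564 and 597 FPKM to 412, 382 and 253 FPKM (-0.67, SE 0.18, adjusted p = 0.013). *Fcer1g*, the gamma chain that OSCAR uses, was the other member called lower. Without replicate 3 of RANKL 72 h *Trem2* was not called (-0.46) and the count of falls was 0; without replicate 1 or 2 of RANKL 4 h it was 1.

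For cell fusion, 8 of 19 tested genes rose and 2 fell. Beside *Dcstamp* and *Ocstamp*, the proton pump subunit *Atp6v0d2* measured 89.8, 56.9 and 87.2 FPKM at 4 h and 151, 76.1 and 167 FPKM at 72 h (0.70, SE 0.45, adjusted p = 0.26). Its samples overlapped, and so did those of the tetraspanin *Cd9*, at 147 ± 27.5 and 167 ± 11.6 FPKM (adjusted p = 0.53). *Clec7a*, the beta-glucan receptor Dectin-1, fell from 459, 286 and 282 FPKM to 126, 100 and 61.1 FPKM (-1.86, SE 0.31, adjusted p = 0.00081). Without replicate 1 of RANKL 72 h only 1 member fell.

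Genes of acid secretion rose at about the share of all tested genes. Of 27 members, 5 rose (18.5%, beside 16.4% of all tested genes) and 1 fell (3.7%, beside 6.83%). The median of 0.16 turned to -0.06 after centring. The 5 that rose were *Slc9b2*, *Car2*, *Rab38*, *Slc4a2* and *Snx10*, of which the last 3 are named after their values were seen. *Car2*, for the carbonic anhydrase that supplies protons, rose from 2.6, 1.5 and 1.44 FPKM to 35.4, 20 and 57.2 FPKM (4.2, SE 0.41, adjusted p = 1.6e-05). *Slc4a2*, the chloride/bicarbonate exchanger that balances proton export, rose by 1.76 (SE 0.23), the vesicle GTPase *Rab38* by 3.00 (SE 0.35) and the sorting nexin *Snx10* by 1.46 (SE 0.22). The proton pump and chloride channel were already abundant at 4 h and were not called. *Tcirg1*, the a3 subunit of the pump, measured 279 ± 15.9 and 212 ± 29.8 FPKM, *Atp6v1c1* 129 ± 16.2 and 128 ± 35.7 FPKM and *Clcn7* 80.5 ± 6.36 and 75.8 ± 15.1 FPKM. *Atp6v0a1*, which encodes the a1 form of the same subunit, fell from 56.6, 72.8 and 88.5 FPKM to 40.8, 46.8 and 42.3 FPKM (-0.72, SE 0.20), a call lost without replicate 3 of RANKL 4 h (-0.57). The count of falls was then 0, and 2 without replicate 3 of RANKL 72 h or replicate 1 of RANKL 4 h.

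Matrix-degrading enzymes split into a few very large rises and a group of falls. Of 19 genes 4 rose and 5 fell, and the median was -0.06 (0.06 with equal sums). *Ctsk* rose from 35, 15.9 and 23.7 FPKM to 987, 532 and 1661 FPKM. *Mmp9*, a gelatinase, rose from 42.1, 12.8 and 45.7 FPKM to 1245, 719 and 2394 FPKM. *Acp5*, for the phosphatase stained as TRAP, rose from 81, 53.2 and 43.6 FPKM to 600, 293 and 945 FPKM (3.26, SE 0.43, adjusted p = 0.00013). The lowest 72 h sample of each gene was above the highest 4 h sample by a wide margin. *Mmp14*, a membrane-bound protease, rose from 54.3 ± 23 to 125 ± 36.6 FPKM (1.24, SE 0.42, adjusted p = 0.039), a call lost without replicate 1 or 3 of RANKL 72 h or replicate 2 or 3 of RANKL 4 h, at 0.89 to 1.29. *Mmp13*, a collagenase, fell from 127, 71.8 and 57.2 FPKM to 19.4, 19.4 and 11.6 FPKM (-2.29, SE 0.33). The other 4 falls, named after their values were seen, were the lysosomal cathepsins *Ctsh* (-1.17, SE 0.22), *Ctsz* (-1.10, SE 0.14), *Ctsl* (-0.92, SE 0.26) and *Ctsb* (-0.69, SE 0.16). *Ctsb* and *Ctsl* were not called without replicate 3 of RANKL 72 h (-0.60 and -0.82), which left 3 falls, and *Ctsl* was also not called without replicate 1 or 3 of RANKL 4 h (-0.91 and -0.74).

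Genes of the podosome and sealing zone went upward, with 11 of 24 tested members higher and a median of 0.60. *Src*, the kinase that organises the ruffled border, rose from 8.92, 5.59 and 3.71 FPKM to 28.9, 18.4 and 43.6 FPKM (2.30, SE 0.32, adjusted p = 0.00022). *Dock5*, an activator of the GTPase Rac, rose from 3, 3.22 and 4.52 FPKM to 19.5, 11.7 and 25.2 FPKM (2.32, SE 0.29). The collagen receptor subunit *Itga2* rose from 0.12 ± 0.0189 to 2.62 ± 1.29 FPKM (3.49, SE 0.43). None of these 3 genes overlapped between the times. The subunits of the vitronectin receptor differed in their calls. *Itgb3* rose from 8.36 ± 3.05 to 25.1 ± 11.4 FPKM, whereas *Itgav* measured 25.9 ± 9.95 and 41.3 ± 13.3 FPKM (0.70, SE 0.37, adjusted p = 0.17).

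Coupling factors, with which osteoclasts act on other bone cells, were listed together with secreted factors and the calcitonin receptor. Of 16 tested members 8 were higher and 1 lower, at a median of 1.01. The 8 include the receptor gene itself and *Car2*, which is also counted under acid secretion. At a filter of a mean of at least 1 FPKM 4 were higher. The calcitonin receptor *Calcr* had 0 fragments in all 3 samples at 4 h and 934 over the 3 at 72 h, at 3.63, 1.79 and 6.36 FPKM. Against a floor of 3 fragments over the group this was at least 311-fold higher. *Sphk1*, the kinase that makes sphingosine-1-phosphate, rose from 0.357, 0.28 and 0.296 FPKM to 1.26, 0.887 and 1.23 FPKM (1.57, SE 0.43). *Pdgfb*, a platelet-derived growth factor named after its values were seen, rose from 2.49 ± 0.311 to 12.9 ± 3.17 FPKM (2.30, SE 0.27). *Cthrc1*, a collagen triple helix repeat protein, measured 31.2, 7.86 and 6.08 FPKM at 72 h against 3.15, 1.21 and 0.792 FPKM at 4 h (2.89, SE 0.82, adjusted p = 0.018). Its 72 h samples were widely spread, and its call was lost without replicate 1 of RANKL 72 h or replicate 2 or 3 of RANKL 4 h, at 2.17 to 2.76. *Sema4d*, a semaphorin, measured 52.1 ± 4.39 and 78.2 ± 12 FPKM (0.58, SE 0.18), just under the fold limit. *Igf1*, the insulin-like growth factor, fell from 37.5, 65.7 and 81.7 FPKM to 28.2, 37.2 and 26.9 FPKM (-0.94, SE 0.31, adjusted p = 0.036). Without replicate 1 or 3 of RANKL 72 h or replicate 2 or 3 of RANKL 4 h it was not called, at -0.89 to -0.70, and the count of falls was 0 in all of these but the first.

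Across 10 core osteoclast markers the 72 h samples kept a fixed order, with replicate 2 lowest in 10 and replicate 3 highest in 9. Of these markers, a list put together after values were seen, 9 rose, and the median log2 difference was 5.24. Their summed level was 154 to 267 FPKM at 4 h, 155 to 280 FPKM in control samples and 1721 to 5474 FPKM at 72 h.

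Genes that hold osteoclast formation back mostly fell. Of 15 such repressors 9 fell and 3 rose, with a median of -0.64. *Id1*, an inhibitor of helix-loop-helix factors, was among the 10 largest falls overall. It measured 86.9, 64.9 and 40.4 FPKM at 4 h and 4.17, 2.14 and 3.26 FPKM at 72 h (-4.27, SE 0.49, adjusted p = 5.2e-05), beside 26.1, 9.22 and 10.6 FPKM in control samples. *Id3* went from 81.3, 70.7 and 54.1 FPKM to 19.9, 14.9 and 15.7 FPKM (-2.02, SE 0.32), beside 20, 12.8 and 6.03 FPKM in control samples. *Id2*, named after its values were seen, fell by 2.45 on the log2 scale (SE 0.35). For these 3 *Id* genes the 4 h samples were the highest of the 3 conditions, and *Id3* alone of them was called at 4 h against control (2.54, adjusted p = 0.0089). *Irf8* fell from 61.1 ± 7.97 to 34.2 ± 6.75 FPKM (-0.85, SE 0.18) and *Bcl6* from 14.3 ± 1.35 to 8.48 ± 1.21 FPKM (-0.75, SE 0.17). *Nfkbia*, for the NF-κB inhibitor IκBα, went the other way, from 74.7, 65.6 and 60.5 FPKM to 103, 125 and 177 FPKM (0.98, SE 0.21).

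The *Id* genes are textbook targets of SMAD proteins, the transducers of BMP and TGF-beta signals. In a list of 24 SMAD feedback and signalling genes 7 fell and 4 rose, while the median was -0.01 (0.11 with equal sums). *Smad6*, an inhibitory SMAD, measured 10.9, 10.4 and 9.4 FPKM at 4 h and 1.89, 1.14 and 0.925 FPKM at 72 h (-2.92, SE 0.37, adjusted p = 0.00011). In control samples it measured 1.29, 0.501 and 0.533 FPKM, so that the 4 h samples stood above both other conditions. *Smad7*, the other inhibitory SMAD, measured 4.48, 4.13 and 4.89 FPKM at 4 h, 2.59, 1.56 and 2 FPKM at 72 h (-1.12, SE 0.26) and 2.08, 1.08 and 1.54 FPKM in control samples. Against control at 4 h, *Smad6* was 3.67 higher (adjusted p = 0.0014) and *Smad7* 1.51 higher (adjusted p = 0.045). Among the 14 genes called at that comparison were thus *Smad6*, *Smad7* and *Id3*, together with *Enc1*, which measured 11.6 ± 0.743 at 4 h and 9.31 ± 2.67 FPKM at 72 h and was not called between the times. *Bmpr1a*, a BMP receptor, rose from 0.639 ± 0.169 to 1.53 ± 0.67 FPKM (1.08, SE 0.29), a call lost without replicate 1 of RANKL 72 h or replicate 2 of RANKL 4 h (0.78 and 0.89).

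**Figure D3:**
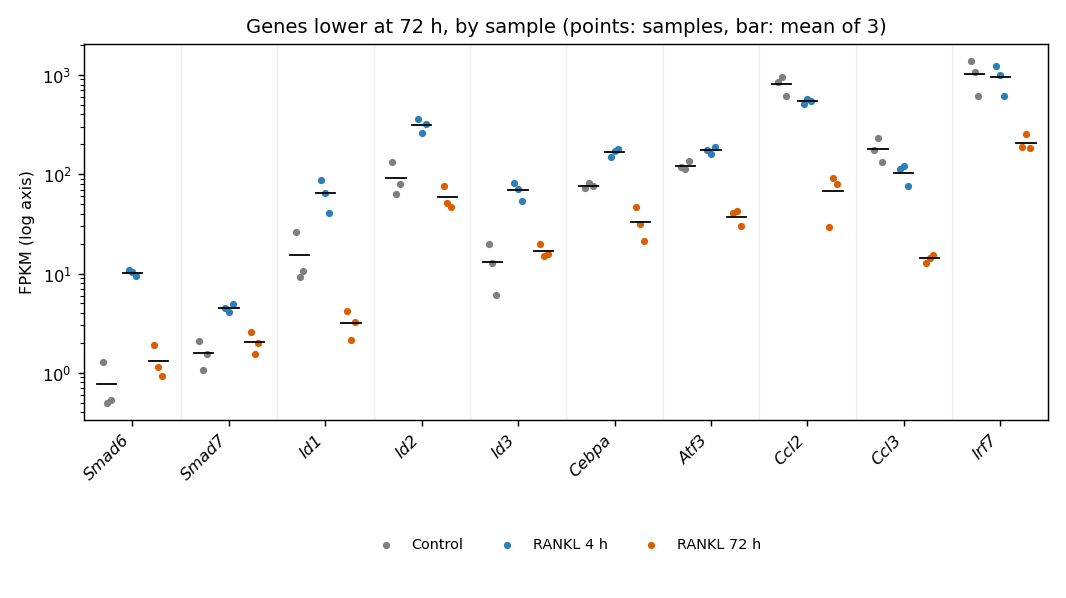
FPKM (vertical, log axis) of 10 genes lower at 72 h than at 4 h in each of the 3 control, RANKL 4 h and RANKL 72 h samples; points are samples and bars the mean of 3. *Smad6*, *Smad7*, *Id1*, *Id2*, *Id3* and *Cebpa* are highest at 4 h, whereas *Ccl2*, *Ccl3* and *Irf7* are not above control at 4 h.

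The window upstream of *Smad6* is shown because of this rise and fall, as the 250 bases before its start from RefSeq (GRCm38.p6), at chr9:64022060-64022309 on the minus strand. Capitals mark ACGTG, a core shared by the binding sites of hypoxia-inducible and several other helix-loop-helix factors, letters that are also part of the longer CACGTG.
Smad6: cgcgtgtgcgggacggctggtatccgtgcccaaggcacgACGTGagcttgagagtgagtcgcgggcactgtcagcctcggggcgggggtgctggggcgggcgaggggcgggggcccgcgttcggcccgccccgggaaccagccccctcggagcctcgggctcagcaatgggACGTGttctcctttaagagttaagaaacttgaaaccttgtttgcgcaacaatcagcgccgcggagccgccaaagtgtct
It held 2 matches of ACGTG and no match of the other motifs searched on either strand. Of all 32536 windows 16.7% held ACGTG and 6.04% CACGTG.

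The NF-κB list had 7 of 27 members higher and 5 lower, with a median of 0.25. *Traf1*, a TRAF family adaptor, rose from 3.59, 3.17 and 2.08 FPKM to 12.3, 17 and 17.8 FPKM (2.39, SE 0.31, adjusted p = 0.00012). *Birc3*, a ubiquitin ligase that restrains cell death, rose from 13.7 ± 1.38 to 48.6 ± 4.78 FPKM (1.81, SE 0.16). *Nfkb2*, the precursor of the noncanonical subunit p52, rose in steps, from 14.8, 11.3 and 9 FPKM in control samples to 23.1, 28.4 and 20.8 FPKM at 4 h and 46.2, 61.7 and 57.3 FPKM at 72 h (1.19, SE 0.18, for 72 h against 4 h). None of the 3 conditions overlapped for *Nfkb2*. Its partner *Relb* measured 13.7 ± 3.99 and 16.3 ± 1.35 FPKM at the 2 times (adjusted p = 0.46). *Gadd45b*, a stress sensor, fell from 61.3 ± 13 to 15.3 ± 4.04 FPKM (-2.00, SE 0.27). The count of falls was 3 without replicate 1 or replicate 3 of RANKL 72 h and 2 without replicate 1 of RANKL 4 h.

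Immediate-early and MAP kinase feedback genes moved both ways, with 7 of 30 higher and 6 lower and a median of 0.13 that turned to -0.09 after centring. *Egr1* rose from 1.74, 0.776 and 0.916 FPKM to 4.94, 4.22 and 7.42 FPKM (2.22, SE 0.29), and *Spry1*, a feedback inhibitor of receptor tyrosine kinases, from 0.658 ± 0.146 to 4.61 ± 2.27 FPKM (2.54, SE 0.37). *Atf3*, a stress-induced repressor, fell from 175, 160 and 190 FPKM to 40.3, 42.2 and 29.9 FPKM (-2.23, SE 0.23), and *Egr2* from 2.57 ± 1.13 to 1.06 ± 0.452 FPKM (-1.20, SE 0.37). The samples of *Egr1*, *Spry1* and *Atf3* stood clearly apart. The phosphatases *Dusp4*, at 18 ± 13.3 and 27.7 ± 14.7 FPKM, and *Dusp6*, at 36.4 ± 7.04 and 52 ± 5.46 FPKM, were not called. The count of rises was 3 without replicate 2 or replicate 3 of RANKL 72 h and 4 without replicate 1 of RANKL 4 h, and *Egr2* was not called without replicate 1 or 3 of RANKL 72 h or replicate 3 of RANKL 4 h, at -1.13 to -0.87.

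Macrophage effector genes went down. Of 33 inflammatory cytokines and chemokines 15 fell and 2 rose, with a median of -0.87. *Ccl2*, which attracts monocytes, fell from 509, 568 and 545 FPKM to 29.6, 91.6 and 80.6 FPKM (-3.16, SE 0.34, adjusted p = 3e-05). *Ccl3* fell from 112, 122 and 76.1 FPKM to 12.7, 14.5 and 15.4 FPKM (-2.83, SE 0.26), and *Ccl4* (-2.90, SE 0.27) and *Ccl5* (-3.56, SE 0.59), the largest fall of the list, also fell. *Tnf* fell from 33.8, 26.4 and 26.6 FPKM to 6.53, 9.08 and 9.26 FPKM (-1.80, SE 0.24). All 72 h samples of these 5 genes were below all 4 h samples, while *Il1b*, at 2.66 ± 1.31 and 1.85 ± 0.752 FPKM, overlapped and was not called. The members that rose were *Lif*, a cytokine of the interleukin-6 family, from 0.284 ± 0.13 to 1.9 ± 0.858 FPKM (2.32, SE 0.43), and *Nos2*; only 1 of them was called without replicate 1 or 3 of RANKL 72 h or replicate 2 or 3 of RANKL 4 h.

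Interferon-stimulated genes depended on single libraries. Of 32 tested members 12 fell, with a median of -1.18, and the count of falls was 6 without replicate 1 of RANKL 4 h and 22 without replicate 3. *Irf7*, the interferon regulatory factor, fell from 1234, 996 and 608 FPKM to 186, 252 and 182 FPKM (-2.15, SE 0.29, adjusted p = 0.00018). *Isg15*, a ubiquitin-like protein, measured 668, 257 and 98.6 FPKM at 4 h and 38.9, 66.6 and 51.7 FPKM at 72 h (-2.32, SE 0.61), and was not called without replicate 1 of RANKL 4 h (-1.64). *Ifit3* measured 273, 90.5 and 24.4 FPKM at 4 h and 20.7, 30.3 and 19.3 FPKM at 72 h (-1.87, SE 0.71, adjusted p = 0.061). Replicate 1 was the highest 4 h sample and replicate 3 the lowest in all 3 genes. The summed list had this order in control samples as well, at 8453, 5586 and 3204 FPKM in replicates 1 to 3. It was 6455, 4142 and 2273 FPKM at RANKL 4 h and 1294, 1711 and 1285 FPKM at RANKL 72 h.

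The count for antigen presentation also depended on single libraries. The summed list was 16121, 11637 and 10655 FPKM in control replicates 1 to 3. It was 16695, 12399 and 11151 FPKM at RANKL 4 h and 7899, 8334 and 6280 FPKM at RANKL 72 h. Of 21 genes 4 fell and 1 rose at a median of -0.55, and 0 fell without replicate 3 of RANKL 72 h or without replicate 1 of RANKL 4 h, against 7 with the replicate block. *H2-Ab1*, an MHC class II chain, measured 105, 62.4 and 13.5 FPKM at 4 h and 41.6, 78.7 and 22.5 FPKM at 72 h, and its invariant chain *Cd74* 322, 164 and 50.7 FPKM and 99.7, 231 and 61.1 FPKM. The samples of *H2-Ab1* and *Cd74* overlapped widely, and neither they nor their regulator *Ciita*, at 0.361 ± 0.266 and 0.587 ± 0.376 FPKM, were called. *Cd80*, a T cell costimulator, rose from 3.73 ± 0.157 to 6.58 ± 0.252 FPKM (0.81, SE 0.17), whereas *Cd86* fell from 11 ± 5.12 to 4.38 ± 2.07 FPKM (-1.31, SE 0.45), with samples that overlapped. The *Cd86* call was lost without replicate 2 or 3 of RANKL 72 h or replicate 1 or 2 of RANKL 4 h, at -1.45 to -0.86.

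Of 34 genes of monocyte and macrophage identity 12 fell and 1 rose, with a median of -0.40. The largest fall was that of *Ly6c2*, a surface marker of inflammatory monocytes, from 750, 391 and 410 FPKM to 90.1, 69.5 and 17.9 FPKM (-3.35, SE 0.50, adjusted p = 0.00036). *Cebpa*, a factor of the myeloid lineage that is named after its values were seen, fell from 150, 173 and 181 FPKM to 46.5, 31.5 and 21.1 FPKM (-2.41, SE 0.28). *Cx3cr1*, the fractalkine receptor, was the only member that rose, from 3.63, 5.59 and 5.37 FPKM to 34.3, 26.9 and 19 FPKM (2.42, SE 0.27). These 3 genes changed without overlap. The F4/80 gene *Adgre1*, at 250 ± 73.7 and 312 ± 28.3 FPKM, the mannose receptor *Mrc1*, at 110 ± 40 and 173 ± 11.1 FPKM, *Ccr2*, at 14.8 ± 2.76 and 20.4 ± 12.2 FPKM, and *Apoe*, at 6397 ± 2805 and 4664 ± 1904 FPKM, were not called. Defining macrophage markers thus remained abundant at 72 h.

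Genes of glucose uptake and glycolysis had 17 of 24 members higher (70.8%) and 1 lower, with a median of 1.26. *Slc2a1*, the glucose transporter GLUT1, rose from 15.4, 17.1 and 24.2 FPKM to 78.2, 73.7 and 91.4 FPKM (2.12, SE 0.19, adjusted p = 6.9e-06). *Pdk1*, the kinase that keeps pyruvate out of the citrate cycle, rose from 4.12, 6.14 and 3.04 FPKM to 45.6, 39.3 and 50.2 FPKM (3.36, SE 0.26, adjusted p = 2.2e-06). *Ldha*, lactate dehydrogenase A, rose from 526, 460 and 330 FPKM to 952, 982 and 1109 FPKM (1.23, SE 0.20). The 72 h samples of these 3 genes lay close together, and replicate 2 was lowest for *Slc2a1* and *Pdk1* but not for *Ldha*. *Slc16a3*, the lactate exporter MCT4, named after its values were seen, rose from 19.3, 12.7 and 10.3 FPKM to 94.5, 98.3 and 98.4 FPKM (2.82, SE 0.38). *Hk2*, a hexokinase, measured 22.1 ± 2.68 and 32.7 ± 3.71 FPKM (0.57, SE 0.15), just under the fold limit. *Hk3*, a hexokinase of myeloid cells, fell from 202, 205 and 205 FPKM to 75.3, 84.5 and 63.4 FPKM (-1.46, SE 0.11, adjusted p = 2.4e-06) and was the only member that fell.

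The upstream window of *Slc16a3* is shown, since its 3 samples at 72 h lay closest together among the glycolytic genes described here. It is the 250 bases before the start from RefSeq (GRCm38.p6), at chr11:120948817-120949066 on the plus strand, with ACGTG in capitals.
Slc16a3: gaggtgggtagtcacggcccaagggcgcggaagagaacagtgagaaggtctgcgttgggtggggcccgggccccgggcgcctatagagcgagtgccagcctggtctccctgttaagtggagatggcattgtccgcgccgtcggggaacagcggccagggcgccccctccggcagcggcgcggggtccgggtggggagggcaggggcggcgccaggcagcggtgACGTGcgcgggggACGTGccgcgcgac
The 2 matches lay at positions -27 to -23 and -14 to -10, counted from the start. Among the 23 genes of the glycolysis list with a window, 10 (43.5%) held ACGTG and 3 (13%) CACGTG, beside 21.4% and 8.17% of the windows of all tested genes. Among genes called higher the share with ACGTG was 20.7% and among genes called lower 18%.

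**Figure D4:**
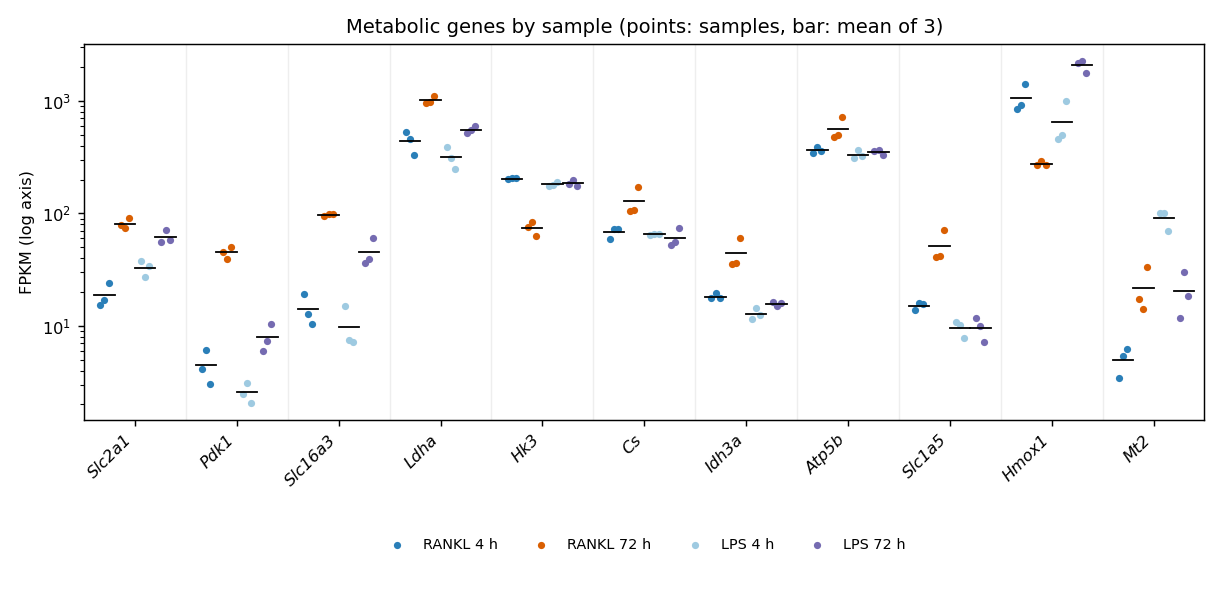
FPKM (vertical, log axis) of 11 metabolic genes in each of 3 samples per group, under RANKL at 4 h and 72 h and under LPS at the same times; points are samples and bars the mean of 3. *Slc2a1*, *Pdk1* and *Slc16a3* are higher at 72 h than at 4 h under either stimulus, while *Hmox1* falls under RANKL and rises under LPS.

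The mitochondrial lists differed in their share of rises. For the citrate cycle and mitochondrial biogenesis 19 of 30 genes were higher (63.3%), with a median of 0.70 and 10 higher after centring. *Idh3a*, a subunit of isocitrate dehydrogenase, rose from 17.5, 19.5 and 17.6 FPKM to 35.8, 36.4 and 60.2 FPKM (1.23, SE 0.17, adjusted p = 0.00018) and citrate synthase *Cs* from 59.3, 72.8 and 72.7 FPKM to 105, 108 and 172 FPKM (0.88, SE 0.18). *Ckmt1*, the mitochondrial creatine kinase, had 1 fragment over the 3 samples at 4 h and 160 at 72 h, a ratio of 160 with a counting interval of 28.3 to 6359. These genes stood apart between the times, with replicate 3 highest at 72 h. *Ckb*, the cytosolic creatine kinase, rose from 171 ± 40.7 to 603 ± 307 FPKM (1.73, SE 0.54), a call lost without replicate 1 or 3 of either group, at 1.34 to 1.80. *Tfam*, which packages mitochondrial DNA, measured 5.47 ± 0.579 and 7.5 ± 0.68 FPKM (adjusted p = 0.053). Of 63 subunits of complexes I, IV and V 9 rose (14.3%, under the 16.4% of all tested genes), at a median of 0.29. With equal sums 15 were higher and the median was 0.41, and after centring 3 were higher and the median was 0.07. *Ndufv3* rose by 0.99 (SE 0.15) and *Ndufs1* from 21.8 ± 1.85 to 41.4 ± 9.47 FPKM (0.91, SE 0.16), both in complex I, while *Cox5a* of complex IV measured 207 ± 45.1 and 220 ± 37.1 FPKM. *Atp5b*, of the ATP synthase, rose by 0.60 (SE 0.15), a call lost without replicate 3 of RANKL 72 h (0.41) or replicate 1 of RANKL 4 h (0.57). The count of rises among these subunits was 15 and 14 without replicate 1 and replicate 2 of RANKL 72 h and 5 without replicate 3.

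Cholesterol synthesis and uptake had 10 of 26 genes higher and 1 lower, with a median of 0.56. The cholesterol exporter *Abca1* rose most, from 22.6, 36.7 and 32.2 FPKM to 119, 94.6 and 60.3 FPKM (1.55, SE 0.24, adjusted p = 0.00041). *Nr1h3*, the sterol receptor LXRα that activates *Abca1*, fell from 63.6, 62.6 and 48 FPKM to 17.1, 22 and 15.4 FPKM (-1.67, SE 0.21). The pair moved apart without overlap. *Sqle*, squalene epoxidase, rose from 14.8 ± 1.3 to 26.5 ± 5.22 FPKM (0.82, SE 0.25), a call lost without replicate 2 or 3 of RANKL 72 h or replicate 1 or 2 of RANKL 4 h, at 0.69 to 0.85. *Hmgcs1*, at 23.9 ± 2.14 and 34.1 ± 1.84 FPKM, was not called.

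Redox genes fell more often than they rose, with 10 of 26 tested members lower and 4 higher. *Hmox1*, haem oxygenase 1, fell from 841, 927 and 1410 FPKM to 268, 293 and 272 FPKM (-1.89, SE 0.27, adjusted p = 0.00025). *Slc7a11*, the cystine importer, fell from 3.82, 2.89 and 4.61 FPKM to 0.769, 0.734 and 0.44 FPKM (-2.38, SE 0.33). Beside *Mt3*, the metallothionein *Mt2*, named after its values were seen, rose from 3.4, 5.34 and 6.22 FPKM to 17.3, 14.2 and 33.5 FPKM (2.04, SE 0.45). *Mt1*, at 55.9 ± 10.5 and 90.9 ± 23.7 FPKM, and the NADPH oxidase subunit *Cybb*, at 148 ± 16.6 and 127 ± 15.9 FPKM, were not called. In the list of amino acid transport and stress response 6 of 26 fell and 4 rose, with a median of 0.01. *Ddit3*, the stress factor CHOP, fell from 40.3, 28.1 and 36.3 FPKM to 8.13, 6.21 and 6.82 FPKM (-2.28, SE 0.29), and *Ddit4*, an inhibitor of mTORC1, rose from 5.42 ± 1.94 to 19.8 ± 4.04 FPKM (1.89, SE 0.37). The glutamine transporter *Slc1a5*, named after its values were seen, rose from 15 ± 1.18 to 50.9 ± 17 FPKM (1.70, SE 0.23), while the synthesis enzymes *Asns* and *Psat1* were not called, at 31.7 ± 3.49 and 24.4 ± 13.1 FPKM and at 24.2 ± 4.45 and 29.1 ± 9.42 FPKM.

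DNA replication and mitosis genes leaned upward, with 25 of 51 higher and 2 lower and a median of 0.91, but the count depended on single libraries. It was 9 and 12 without replicate 2 and replicate 3 of RANKL 72 h and 10 and 15 without replicate 1 and replicate 2 of RANKL 4 h. *Bub1*, a mitotic checkpoint kinase, measured 3.94, 4.76 and 5.89 FPKM at 4 h and 14.9, 19.2 and 19.6 FPKM at 72 h (1.87, SE 0.54, adjusted p = 0.019). *Mki67*, for the proliferation antigen Ki-67, measured 14.7, 18 and 24.9 FPKM and 37.8, 41.7 and 37.8 FPKM (1.06, SE 0.36, adjusted p = 0.042). Either gene was higher in every 72 h sample than in every 4 h sample. *Bub1* was not called without replicate 2 or 3 of RANKL 72 h or replicate 1 of RANKL 4 h (1.73 to 1.81), and *Mki67* was not called when any RANKL library other than replicate 3 of RANKL 4 h was left out (0.88 to 1.08). *Top2a*, at 30.3 ± 4.61 and 73 ± 12.6 FPKM, *Ccnb1*, at 17.9 ± 2.95 and 34.8 ± 7.67 FPKM, and *Mcm5*, at 25.9 ± 2.85 and 42.5 ± 15.3 FPKM, did not pass the test. *Cdkn1a*, the cyclin-dependent kinase inhibitor p21, fell from 385, 346 and 173 FPKM to 100, 133 and 139 FPKM (-1.21, SE 0.33), a call lost without replicate 1 of RANKL 72 h or replicate 1 or 2 of RANKL 4 h, at -1.07 to -0.99. The count of falls was 0 or 1 without any of the libraries other than replicate 2 of RANKL 72 h.

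Most ribosomal protein genes were not called. Of 77 cytosolic ribosomal proteins 7 were called higher, under the background, at a median of 0.35 (0.13 after centring). The log2 difference was above 0 in 76 of the 77. With equal sums 16 were called higher, and after centring 2. *Rpl3* rose from 303, 359 and 353 FPKM to 566, 619 and 671 FPKM (0.87, SE 0.15), and *Rpl22l1* from 26.4 ± 8.03 to 59.3 ± 11.2 FPKM (1.20, SE 0.21). *Rps6*, at 281 ± 27.5 and 387 ± 41.7 FPKM, was not called. The count was 3 without replicate 3 of either group. Of 77 mitochondrial ribosomal proteins 2 were higher, with a median of 0.08 that turned to -0.14 after centring; 1 was higher without replicate 3 of RANKL 72 h or replicate 2 or 3 of RANKL 4 h and 4 without replicate 1 of RANKL 4 h. *Mrps6* rose from 7.38 ± 1.8 to 17.1 ± 5.89 FPKM (1.17, SE 0.34) and lost its call in the first 3 of these cases, at 0.91 to 1.10, and *Mrpl12* measured 54.2 ± 4.89 and 71.2 ± 15.3 FPKM and *Mrps18b* 22.4 ± 2.56 and 18.6 ± 4.43 FPKM. In the nucleolar list of 21 genes *Npm1*, a nucleolar chaperone, alone rose, from 187 ± 18.2 to 326 ± 32.6 FPKM (0.80, SE 0.13), and 2 genes rose without replicate 1 of RANKL 72 h or with the replicate block. *Ncl*, at 58.2 ± 2.43 and 77.9 ± 9.92 FPKM, and *Nop56*, at 28.3 ± 1.6 and 30 ± 5.45 FPKM, were not called.

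Lysosomal hydrolases and membrane proteins had 7 of 36 members lower (19.4%, beside 6.83% of all tested genes) and 4 higher (11.1%, beside 16.4%), with a median of -0.19. These counts depended on the scale. With equal sums 3 were lower, at a median of -0.07. After centring 13 were lower and 2 higher, at a median of -0.41. *Arsb*, the arylsulfatase that trims sulfated glycosaminoglycans, rose from 9.77, 12 and 13.9 FPKM to 127, 61.9 and 184 FPKM (3.26, SE 0.29, adjusted p = 8e-06), in the replicate order of the osteoclast markers. *Gla*, an alpha-galactosidase, fell from 121, 95.2 and 92.9 FPKM to 50.5, 43.6 and 41.3 FPKM (-1.18, SE 0.21). The common lysosomal membrane proteins *Lamp1*, at 1180 ± 37.7 and 955 ± 73.2 FPKM, and *Cd63*, at 516 ± 81.4 and 342 ± 20.7 FPKM, were not called.

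Markers of other bone marrow cells also differed between the times, and their part in the results above was not tested. Of 17 neutrophil and granulocyte progenitor genes 8 fell, and their summed level was 7916 to 22995 FPKM at 4 h and 2042 to 8173 FPKM at 72 h. *Mpo*, *Elane*, *Prtn3*, *Ctsg* and *Ms4a3*, all made in granulocyte progenitors, were among the 10 largest falls. *Elane*, for neutrophil elastase, measured 422, 401 and 224 FPKM at 4 h and 12.8, 9.8 and 4.31 FPKM at 72 h (-5.35, SE 0.82, adjusted p = 0.00041), and *Prtn3*, for proteinase 3, fell from 265, 249 and 142 FPKM to 10.7, 8.98 and 2.9 FPKM (-4.99, SE 0.75). *Mpo*, myeloperoxidase (-5.55, SE 0.83), *Ctsg*, cathepsin G (-5.21, SE 1.14), and *Ms4a3* (-4.64, SE 0.96) also fell without overlap. The alarmin *S100a8*, of mature neutrophils, measured 6751, 2104 and 4193 FPKM at 4 h and 2261, 1120 and 594 FPKM at 72 h and was not called (-1.77, SE 0.79, adjusted p = 0.11).

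Basophil and mast cell genes fell in 8 of 10 tested members, and 4 more were below the filter. Their summed level was 25.0 to 72.2 FPKM at 4 h and 2.89 to 12.7 FPKM at 72 h. The count of falls was 5 without replicate 2 of RANKL 72 h or replicate 1 of RANKL 4 h. It was 3 at a filter of a mean of at least 1 FPKM. Low genes could pass the filter through the groups where they were high, so the shares of this list and the erythroid list are descriptions only. *Prss34*, a basophil protease, had the largest of the 10 leading falls, from 34.5, 12.6 and 8.57 FPKM to 0.0803, 0.345 and 0.0389 FPKM (-6.13, SE 0.68, adjusted p = 4e-05), and *Prg2*, the major basic protein of eosinophils, fell from 43.5, 25.2 and 22.3 FPKM to 2.13, 0.64 and 1.42 FPKM (-4.42, SE 0.42). *Cpa3*, a mast cell carboxypeptidase, fell by 3.74 (SE 0.60), and *Mcpt8* measured 5.86 ± 4.66 and 1.39 ± 1.78 FPKM and was not called. Erythroid and megakaryocyte genes fell in 8 of 10 tested members, from a sum of 660 to 837 FPKM to 268 to 429 FPKM. Another 6 were below the filter, and the count of falls was 5 at a mean of at least 1 FPKM. *Car1* and *Slc4a1*, which define red cells, were at 0 in all 6 samples. *Hba-a1*, an alpha globin, had 206 fragments over the 3 samples at 4 h and 1 at 72 h, a ratio of 206 with a counting interval of 36.6 to 8176, and *Alox12*, the platelet lipoxygenase, fell from 9.25, 3.4 and 3.42 FPKM to 0.167, 0.0954 and 0.0485 FPKM (-4.62, SE 0.53).

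B cell genes fell in 5 of 11 tested members, with a sum of 90.0 to 117 FPKM at 4 h and 73.6 to 94.0 FPKM at 72 h. The count of falls was 3 without replicate 3 of RANKL 72 h or replicate 1 or 2 of RANKL 4 h. It was 1 at a filter of a mean of at least 1 FPKM. *Cd79a*, of the B cell receptor, measured 4.89, 4.99 and 0.781 FPKM and 0.231, 0.367 and 0.0373 FPKM (-3.35, SE 0.65). Of 15 tested T and NK cell genes 2 rose (13.3%, beside 16.4% of all tested genes) and 1 fell (6.67%, beside 6.83%), near the background. Their summed range was 26.1 to 61.6 FPKM at 4 h and 35.3 to 85.8 FPKM at 72 h. *Prf1*, perforin, rose from 0.285 ± 0.165 to 2.64 ± 0.332 FPKM (2.91, SE 0.60), as did the granzyme *Gzmg* above. By voom *Prf1* was not called either (3.31, adjusted p = 0.0541). The T cell receptor chain *Cd3e* measured 0.31 ± 0.207 and 0.395 ± 0.346 FPKM. *Nkg7*, a granule protein, fell by 1.57 (SE 0.54), a call lost without replicate 3 of RANKL 72 h or replicate 1 or 2 of RANKL 4 h, at -1.59 to -1.0. The count of rises was 1 without replicate 1 or replicate 2 of RANKL 72 h and 4 without replicate 3. Of 13 dendritic cell genes 2 fell and 1 rose, from a sum of 744 to 1834 FPKM to 372 to 518 FPKM, with 1 to 4 falls when a library was left out and 5 with the replicate block. The count of rises was 0 without replicate 1 or 2 of RANKL 72 h or replicate 2 or 3 of RANKL 4 h, and by voom. *Siglech*, of plasmacytoid dendritic cells, measured 3.86, 3.82 and 0.409 FPKM and 0.464, 0.417 and 0 FPKM (-2.69, SE 0.86), with overlap, and lost its call without replicate 3 of RANKL 72 h or replicate 1 or 2 of RANKL 4 h, at -2.21 to -1.88. *Flt3*, at 0.618 ± 0.415 and 0.2 ± 0.173 FPKM, and *Itgax*, at 11.1 ± 2.21 and 16.6 ± 4.63 FPKM, were not called. Of 11 tested endothelial genes only *Kdr*, a VEGF receptor, was called (9.09% lower, beside 6.83% of all tested genes). It measured 5.15 ± 0.991 and 1.56 ± 0.201 FPKM (-1.65, SE 0.31). The count of falls was 2 without replicate 1 or replicate 2 of RANKL 72 h. It was 3 without replicate 3 of RANKL 4 h or with the replicate block. *Cdh5* measured 2.16 ± 0.768 and 1.35 ± 0.882 FPKM.

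Stromal markers went the other way. Of 24 genes 11 rose, at a summed level of 296 to 539 FPKM at 4 h, 254 to 522 FPKM in control samples and 648 to 2815 FPKM at 72 h. *Fn1*, fibronectin, rose from 21.9, 20.7 and 20.4 FPKM to 217, 84.2 and 55.2 FPKM (2.25, SE 0.39, adjusted p = 0.00092). *Col1a1*, a collagen I chain, measured 118, 74.3 and 65.5 FPKM and 692, 322 and 158 FPKM (adjusted p = 0.041), and *Col3a1* 21.7, 12.2 and 9 FPKM and 173, 57.7 and 25.9 FPKM (adjusted p = 0.045). Replicate 1 was highest and replicate 3 lowest at 72 h in these 3 genes, which is not the order of the osteoclast markers. The summed stromal list had the same order in control samples (522, 339 and 254 FPKM in replicates 1 to 3) and at 4 h (539, 359 and 296 FPKM). *Sparc* measured 50.6 ± 19.6 and 182 ± 126 FPKM and *Dcn* 1.49 ± 0.872 and 0.7 ± 0.415 FPKM, and neither was called. The count of rises was 2 and 4 without replicate 1 and replicate 2 of RANKL 72 h, 18 without replicate 3, and 3 and 2 without replicate 2 and replicate 3 of RANKL 4 h. Both collagens kept their call only when the library left out was replicate 3 of RANKL 72 h, with *Col1a1* at 1.44 to 2.23 and *Col3a1* at 1.53 to 2.59 when another was left out.

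Some lists had called members in a single direction. Over all tested genes 6.83% were called lower and 16.4% higher, so in a list of few members a count of 0 is not far from the background. By limma the count of lower members was 0 for the podosome, citrate cycle, respiratory chain, cytosolic, mitochondrial and nucleolar ribosome and stromal lists, and the count of higher members was 0 for the interferon, neutrophil, basophil, erythroid, B cell and endothelial lists. At an unadjusted p under 0.05 and by voom these counts were also 0. After centring the count of lower members was 1 for the podosome, cytosolic ribosome and nucleolar lists and 2 for the mitochondrial ribosome list. It was 1 for the stromal list with the replicate block, and the count of higher B cell genes was 1 without replicate 3 of RANKL 72 h.

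**Figure D5:**
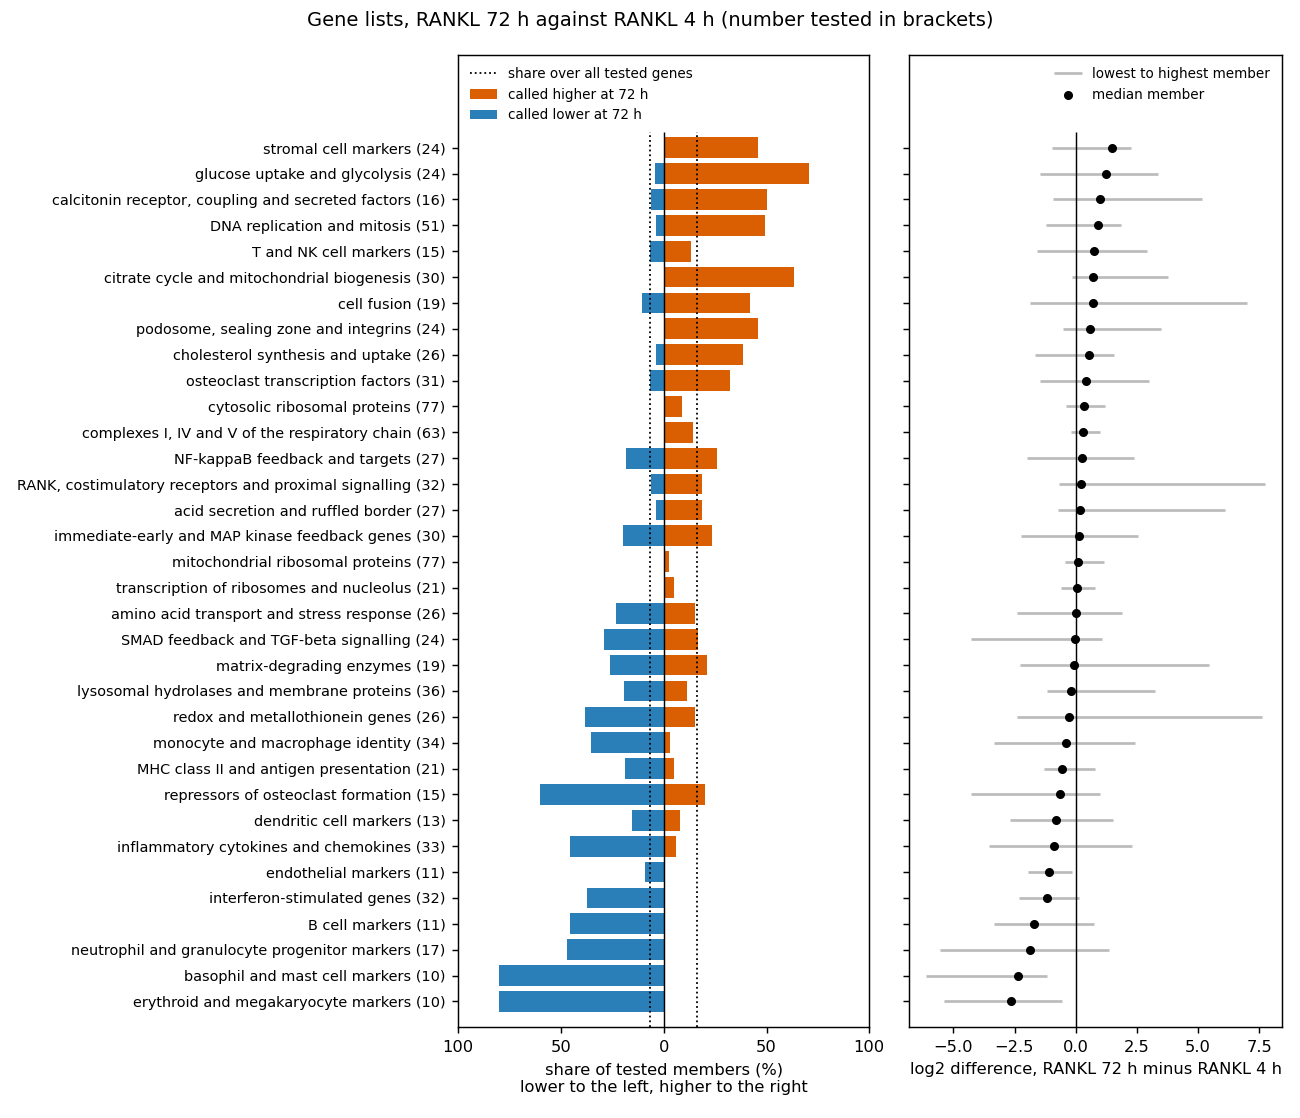
Left, share of the tested members of each of 34 gene lists called higher (orange) or lower (blue) at RANKL 72 h against RANKL 4 h, with dotted lines at the shares over all tested genes (16.4% and 6.83%); right, the median (point) and range (line) of the members' log2 differences. Glucose uptake and glycolysis has the longest orange bar, and the basophil and mast cell and the erythroid and megakaryocyte lists the longest blue bars. Tested members are those that passed the filter, which low genes could pass through the groups where they were high.

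To ask which changes were larger or smaller under RANKL than under LPS, the difference between the change from 4 h to 72 h under either stimulus was tested as an interaction. No sample enters both changes. The RANKL change was the higher at 1805 genes (15.4%) and the lower at 3953 (33.7%). The change under LPS had a median of 0.52, and after centring 2793 genes were higher and 2282 lower, so the split by direction is not fixed by these data (31.3% of called genes higher as deposited, 35.1% with equal sums and 55.0% after centring). For the 5 lists given next neither scaling turned the balance of higher and lower members. The change under RANKL was the higher in 41 of 51 members of DNA replication and mitosis, 69 of 77 cytosolic ribosomal proteins and 25 of 27 of the NF-κB list. The median changes under RANKL and LPS were 0.91 and -1.81, 0.35 and -0.62, and 0.25 and -2.36. These are changes and not levels. The summed NF-κB list was 6478 to 8074 FPKM at LPS 4 h and 1287 to 1695 FPKM at LPS 72 h, beside 906 to 985 FPKM at RANKL 72 h. *Mki67* changed by 1.06 under RANKL and -3.19 under LPS, *Rpl3* by 0.87 and -0.61, and *Nfkb2* by 1.19 and -2.40, each with an interaction called at an adjusted p of at most 6.9e-05. For lysosomal genes the RANKL change was the lower in 22 of 36 and the higher in 3, and for mitochondrial ribosomal proteins in 45 of 77 and in 2. After centring the lysosomal counts were 15 lower and 4 higher. The mitochondrial ribosomal counts were then 19 lower and 3 higher, beside 2282 lower among all 11743 tested genes. *Lamp1* changed by -0.31 and 0.48, and *Mrps18b* by -0.29 and 1.28.

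*Smad6*, for SMAD feedback, and *Hmox1* also parted between the stimuli. *Smad6* changed by -2.92 under RANKL and by 1.51 under LPS (interaction -4.42, adjusted p = 2e-05). *Hmox1* changed by -1.89 and 1.75 (interaction -3.65, adjusted p = 8.3e-06). For both genes the stimuli moved the level in opposite directions between 4 h and 72 h. The glycolytic rises were partly shared, with *Slc2a1* at 2.12 under RANKL and 0.91 under LPS, *Pdk1* at 3.36 and 1.57 and *Ldha* at 1.23 and 0.83. The interaction passed the test for *Slc2a1* (1.21, adjusted p = 0.0017) and *Pdk1* (1.80, adjusted p = 0.0011) and not for *Ldha* (0.40, adjusted p = 0.25).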

How the data were processed

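Total RNA of 15 samples of mouse bone marrow-derived macrophages, 3 per group, was sequenced. Expression was deposited by the authors as FPKM, estimated with StringTie and Ballgown according to the study's methods; the submitters' processing notes name StringTie, mm10 and GRCm38.p4. The aligner and the annotation are not given in the sources used here. The last complete entry is *Tti2*, and genes after it in alphabetical order were not analysed here. FPKM corrects for gene length and depth but not for a few genes taking a larger share, so values centred or set to equal sums were tried. Whole fragments behind the deposited FPKM were recovered for 14485 genes, and 100% of their values above 0 were within 0.01 of a whole number. Samples held 18306184 to 20330207 fragments on listed genes, and fragments are not independent molecules, so intervals and floors cover counting error only. The samples of each group differed from each other well beyond sampling noise.

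Groups were taken from the sample labels. The linear models of limma 3.58.1 under R 4.3.3, with empirical Bayes moderation along the mean-variance trend, took log2(FPKM + 0.1) of 11743 genes whose mean over the 15 samples reached 0.1 FPKM, with all 5 groups in the same model. A fold change is on that scale, which understates the change of low genes. Adjusted p-values are Benjamini-Hochberg values over all tested genes. The fold limits of 1.5 and 0.66 are those of the study's methods, where the authors used edgeR and an unadjusted p. The interaction was the RANKL change minus the LPS change. The fit was tested on simulated data. Replicate numbers come from the labels, and samples of the same number deviated together from their group means between the 2 RANKL times (correlations across genes of 0.27, 0.16 and 0.25), so the block on replicate number was fitted as an alternative.

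Genes named in the text are the 10 largest rises and falls among called genes without overlap and with a mean of at least 1 FPKM in the higher group, the key genes of the lists, and the largest called rise and fall of each list at that level; others are said to be named after their values were seen. A few key genes are not reported here. The members and lists were chosen with earlier results of these data known. Promoter windows came from a RefSeq table of 32851 windows of 27025 genes and were cut to the bases before the start. Tables and figures were made with Python 3.11.15, pandas 2.3.3 and matplotlib 3.10.9. The alternatives were pseudocounts of 1 and 0.01, no filter and a mean of at least 1 FPKM, equal sums, centring on the median, the RANKL samples alone, the replicate block, no trend, voom on fragments, unadjusted p and each RANKL library left out in turn.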

Additional observations from a re-analysis of the deposited data

Results flagged for a closer look

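The change from 4 h to 72 h differed between RANKL and LPS, by limma's test of the interaction, for 11 of the 20 genes with the largest rises and falls under RANKL. These 20 genes were picked by their RANKL change, which is part of the interaction, so the count is only a description. Over all 11743 tested genes the interaction was called at 5758. The interaction on the log2 scale was 8.0 for *Mt3*, 7.44 for *Dcstamp*, 7.29 for *Oscar*, 7.0 for *Mst1r*, 6.87 for *Slc9b2*, 6.67 for *Kbtbd11*, 6.57 for *Ocstamp*, 6.16 for *Cyp2s1* and 4.86 for *Siglec15*, the last with an adjusted p of 2.8e-05. Under LPS these 9 genes changed by between -0.77 for *Slc9b2* and 0.91 for *Siglec15*. *Id1* had an interaction of -4.28 (adjusted p = 0.00021), with -4.27 under RANKL and 0.02 under LPS. *Prg2* had an interaction of 3.02 (adjusted p = 0.00087), since it fell by 4.42 under RANKL and by 7.44 under LPS.

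For the other 9 genes the interaction did not pass the test, which does not show that the changes were alike. *Gzmg* rose by 5.95 under RANKL and 6.2 under LPS (interaction -0.25, adjusted p = 0.93). The change was -6.13 under RANKL and -6.75 under LPS for *Prss34*, -5.55 and -6.69 for *Mpo*, -5.35 and -6.92 for *Elane*, -5.21 and -5.55 for *Ctsg*, -4.99 and -5.55 for *Prtn3*, -4.64 and -6.49 for *Ms4a3*, -4.62 and -4.03 for *Alox12* and -5.38 and -3.45 for *Hba-a1*. No cause was tested for either group of genes.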

How the results depend on the processing

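The counts of called genes for RANKL 72 h against RANKL 4 h and for the interaction stayed within 1.5 times the reported counts under every alternative, except that centring each sample on its median gave 1141 higher and 1351 lower genes in place of 1930 and 802. The count model, voom on the recovered fragments, called 2823 genes, 2072 higher and 751 lower. Leaving out a library gave 1939 to 2519 called genes, 1377 to 1739 higher and 539 to 788 lower. The replicate block called 3006 genes, 2707 of them shared with the fit without it, and among the 124 called genes named in the text it changed the call of *Traf6* alone. Of these 124 genes, 95 kept their call under all 17 alternatives and 0 turned direction. The other 29 lost it under at least 1, most often without replicate 3 of RANKL 72 h (18 genes) or without replicate 1 of RANKL 4 h (17). Centring on the median lost 11, no filter on low values 9, no trend 8, the RANKL samples alone 7, voom 5 (*Cd86*, *Gzmg*, *Nkg7*, *Prf1* and *Siglech*) and equal sums 4.

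The log2 difference of 9 genes that were not called changed sign. With equal sums it was 0.08 for *Atp6v1c1*, 0.05 for *Cd3e*, 0.02 for *Clcn7* and 0.03 for *H2-Ab1*; after centring it was -0.01 for *Cd9*, -0.12 for *Cox5a* and -0.15 for *Nop56*; with a pseudocount of 1 it was 0.07 for *Cd3e*. When a library was left out, it ranged from -0.25 to 0.13 for *Atp6v1c1*, -0.20 to 0.87 for *Ccr2*, -0.54 to 0.90 for *Cd3e*, -1.04 to 0.29 for *Cd74*, -0.26 to 0.01 for *Clcn7*, -0.07 to 0.25 for *Cox5a*, -0.95 to 0.53 for *H2-Ab1* and -0.06 to 0.20 for *Nop56*. Centring also lowered the counts of rises among cholesterol, DNA replication and cytosolic ribosomal genes, to 4, 11 and 2. Equal sums raised the counts among cholesterol and cytosolic ribosomal genes, to 16 and 16. The cause was not tested. With 3 samples per group and 18306184 or more fragments each, the spread between samples rather than depth limits the calls of abundant genes, while genes near 0.1 FPKM rest on few fragments.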

Other observations

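Genes that textbooks list as responding to low oxygen were gathered after the values had been seen, so their counts are a description with no test. Of 36 tested members 27 rose and 1 fell at RANKL 72 h against RANKL 4 h, with a median log2 difference of 1.55, and their summed level was 1282 to 1645 FPKM at 4 h and 3462 to 3904 FPKM at 72 h. The list shares *Slc2a1*, *Pdk1* and *Ldha*, among other genes, with the glycolysis list, and *Ddit4* with the list of amino acid transport and stress response. *Ankrd37*, an ankyrin repeat gene, measured 0.207, 0.234 and 0.079 FPKM at 4 h, 8.91, 10.2 and 11.1 FPKM at 72 h and 1.24, 0.475 and 0.533 FPKM in control samples, and it rose by 3.14 under LPS. The 3 samples at 72 h lay close together for this gene and for the summed level, in contrast to the osteoclast markers, whose lowest and highest 72 h samples differed by 2.2 to 3.68 times. The member that fell was *Tgm2*, a transglutaminase, at 208, 236 and 261 FPKM at 4 h and 130, 73.9 and 77.1 FPKM at 72 h. The oxygen supply, the cell density and the medium of the cultures at either time were not tested.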
